A study of Homo sapiens with 3 samples.

Results

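Long noncoding RNAs (lncRNAs) that stood on the same side of the control with each of 2 siRNAs against ADAR1 are described here in Cal62, an established human thyroid cancer cell line. The cells were transfected with a nontargeting siRNA (siControl), with siADAR1 #1 or with siADAR1 #2, and poly(A)-selected RNA from 2 biological replicates per group was sequenced, so each group holds 2 libraries and there are 6 in all. All groups share the same cell line and transfection procedure, and the replicates are cultures of that line, so p-values measure the spread between cultures of Cal62 and not between tumors. The values are log2 values of normalized, variance-stabilized read counts per gene, and every difference below is on that log2 scale, which understates changes of genes with few reads. An lncRNA was taken as a member if its mean over the 6 libraries was at least 6 (about 61.5 normalized reads) and if all 4 siADAR1 values lay at least 0.2 above the larger siControl value, or at least 0.2 below the smaller one. The host genes of small nucleolar RNAs, 25 of the 1044 lncRNAs at that mean, were left out. Of the 1019 lncRNAs screened, 132 were members, with 64 higher (6.28%) and 68 lower (6.67%) with both siRNAs, out of 58333 genes in the table. The same limits passed 5.71% of all 13500 genes at that mean upward and 11.4% downward. The share of lncRNAs was thus near that of all genes upward and lower than that of all genes downward. When each library was centred on its median gene, which moved the median of all genes with siADAR1 #1 from -0.02 to 0.12 against siControl, the counts became 86 higher and 52 lower.

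LncRNAs are transcripts that are not translated into a functional protein. Some stay in the nucleus and act on chromatin or splicing, some bind proteins in the cytoplasm, and some are host transcripts from which microRNAs are cut. Many start beside or run across a protein-coding gene, often on the other strand, and can affect that neighbor by being transcribed. ADAR1 is the enzyme that converts adenosine to inosine in double-stranded RNA, and double-stranded stretches are common in noncoding transcripts. In poly(A)-selected bulk RNA, a lower value for a transcript cannot be told apart from fewer cells that carry it.

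Because the siADAR1 and siControl values chose the members, their shifts against siControl are given as a description, without a test. Reads on ADAR itself, the target of both siRNAs, numbered 10015 and 11472 in siControl, fell to 1420 and 1788 with siADAR1 #1, and were 1467 and 1999 with siADAR1 #2. Its normalized log2 values were 13.41 and 13.51, 10.38 and 11.13, and 10.70 and 11.52 in that order. ADAR was thus less reduced in replicate 2 than in replicate 1 with either siRNA. Libraries held 30114840 to 50029763 reads on genes. The thyroid transcription factor gene PAX8 had 2242 to 15557 reads per library, whereas NKX2-1, another defining thyroid gene, had 0 in all 6. The summed level of 10 thyroid genes was 16322 to 18157 normalized counts in siControl and 12863 to 17817 with siADAR1 #1. With siADAR1 #2 it was 4727 to 7529. Most of that sum was PAX8, with group means of 14897, 12673 and 4013. HHEX, the next highest, was at 2011, 2460 and 1821. With siADAR1 #2 the low FOXE1 fell from 200 to 83.3 and the low TSHR rose from 72.1 to 101. The summed level of 4 mesenchymal genes (VIM, CDH2, FN1, ZEB1) was 272752 to 284678, 81462 to 133600 and 87455 to 154951 in that order. Most of it was VIM and FN1, with CDH2 at 5998, 4963 and 5608 and ZEB1 at 2879, 2541 and 1859. The summed level of 5 epithelial genes was 74103 to 92785, 102317 to 106204 and 67785 to 77725. Of 5 blood cell genes, 1 (CD14) had over 10 reads in every library and CD3E was at 0 in every library, and their summed level was 37.7 to 47.9 in siControl, 122 to 124 with siADAR1 #1 and 21.5 to 41.0 with siADAR1 #2. The part of these differences in the lncRNA values was not tested.

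Several members span microRNA genes on their own strand, so the sequences of those microRNAs are shown first. They were read from RefSeq, positions are in GRCh38, and the capitals mark the seed, bases 2 to 8, which pairs with target messages. MIR17HG (chr13:91347686-91397592, plus strand) is the host of the miR-17-92 cluster, known for promoting proliferation. Its arms fall into groups by seed, with miR-17-5p and miR-20a-5p in one and miR-19a-3p and miR-19b-3p in another:
hsa-miR-17-5p: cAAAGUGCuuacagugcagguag
hsa-miR-20a-5p: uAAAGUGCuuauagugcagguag
hsa-miR-18a-5p: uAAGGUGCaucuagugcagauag
hsa-miR-19a-3p: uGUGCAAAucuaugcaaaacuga
hsa-miR-19b-3p: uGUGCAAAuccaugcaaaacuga
hsa-miR-92a-3p: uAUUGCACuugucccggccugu

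The other hosts carry microRNAs of different families. DLEU2 (chr13:49956670-50125720, minus strand) holds miR-15a and miR-16, which restrain cell cycle and survival genes and share a seed. MIR31HG (chr9:21380073-21559891, minus strand) holds miR-31, MIR9-3HG (chr15:89361579-89424983, plus strand) holds miR-9, and ENSG00000275180 (chr12:62603366-62604408, plus strand) spans let-7i, of a family known for repressing growth genes. LINC-PINT (chr7:130791264-131110176, minus strand), a p53-induced lncRNA, spans miR-29a and miR-29b, which share a seed and target collagen messages:
hsa-miR-15a-5p: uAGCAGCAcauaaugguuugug
hsa-miR-16-5p: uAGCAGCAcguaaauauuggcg
hsa-miR-31-5p: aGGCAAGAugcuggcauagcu
hsa-miR-9-5p: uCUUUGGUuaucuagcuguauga
hsa-let-7i-5p: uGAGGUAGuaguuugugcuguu
hsa-miR-29a-3p: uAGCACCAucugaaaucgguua
hsa-miR-29b-3p: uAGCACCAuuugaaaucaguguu

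The hosts of the miR-17-92, miR-15a/16, miR-31, miR-9 and let-7i sequences above were all lower with both siRNAs, whereas LINC-PINT and MIR130AHG, the host of miR-130a, were higher. MIR17HG had log2 values of 8.40 and 8.60 in siControl, 7.55 and 7.12 with siADAR1 #1, and 6.56 and 7.15 with siADAR1 #2. Its shifts were -1.17 and -1.65, or 0.446 and 0.319 of the control level. Every siADAR1 value lay below siControl, as the rule requires. The siADAR1 groups overlapped each other, and the lowest value, 6.56, was with siADAR1 #2. DLEU2 had 9.48 and 9.70 in siControl, 8.01 and 8.76 with siADAR1 #1, and 8.33 and 8.71 with siADAR1 #2, for shifts of -1.21 and -1.07. MIR31HG had 7.61 and 8.04, then 5.73 and 7.36, then 5.51 and 6.85 in the same order of groups. Replicate 1 was far below replicate 2 with either siRNA, so that the SD was 1.16 with siADAR1 #1 and 0.95 with siADAR1 #2 (n = 2) against shifts of -1.28 and -1.65.

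MIR9-3HG moved least among the hosts, with 9.35 and 9.52 in siControl, 8.97 and 9.04 with siADAR1 #1, and 8.81 and 8.96 with siADAR1 #2. The let-7i transcript ENSG00000275180 had 7.69 and 7.65, 6.42 and 7.26, and 6.68 and 6.81. Both siADAR1 groups lay below the controls, by -0.83 and -0.93, with replicate 1 of siADAR1 #1 the lowest. LINC-PINT went the other way, from 7.69 and 7.53 in siControl to 9.08 and 8.58 with siADAR1 #1 and 8.55 and 7.97 with siADAR1 #2. MIR130AHG (chr11:57638024-57652790, plus strand) had 5.94 and 5.99, 7.47 and 6.70, and 7.25 and 6.75. It overlaps YPEL4 and CLP1 on its own strand, so reads of their unspliced RNA cannot be told apart from its own. YPEL4 differed from siControl by 1.92 with siADAR1 #1 and 2.16 with siADAR1 #2, and CLP1 by 0.50 and 0.21. The values of the hosts are levels of polyadenylated transcripts, and the microRNAs themselves were not measured. ENSG00000275180 is named here outside the rule for named genes, for its microRNA and after its values were seen. YPEL4 is also named outside that rule, for its overlap and after its values were seen. DANCR, TTC28-AS1, GABPB1-AS1 and ENSG00000284707 also span less studied microRNAs (miR-4449, miR-3199, miR-4712 and miR-5692c).

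**Figure D1:**
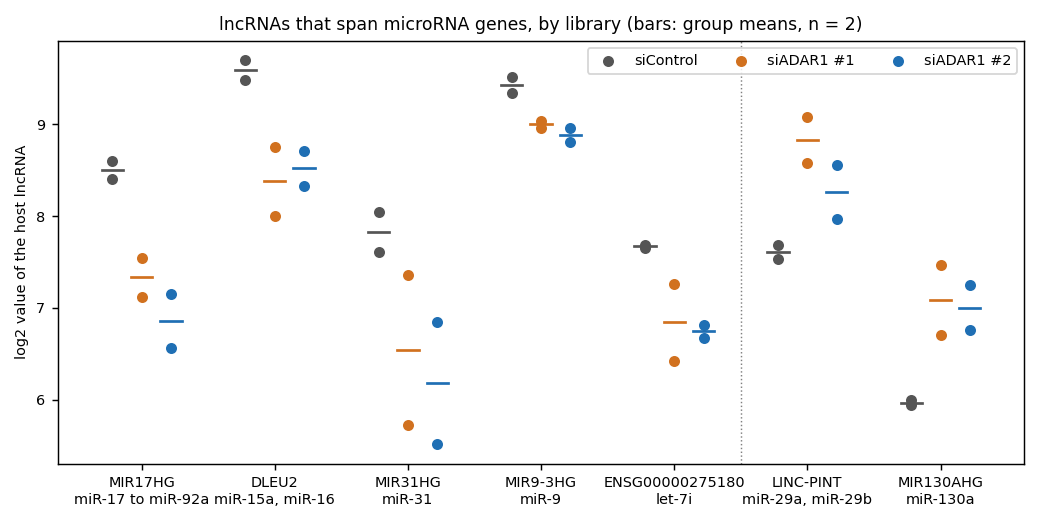
Log2 value (y axis) of 7 lncRNAs that span microRNA genes, with 1 point per library, colored by group, and a bar at each group mean (n = 2). The 5 hosts left of the dotted line lie below siControl in all 4 siADAR1 libraries, and LINC-PINT and MIR130AHG lie above; the wide spread of MIR31HG within each siADAR1 group is visible.

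Among the members that rose were some of the best studied nuclear and cytoplasmic lncRNAs. MALAT1 (chr11:65497640-65508073, plus strand, a single exon), a nuclear speckle RNA linked to splicing and metastasis, had log2 values of 16.05 and 15.92 in siControl, 17.46 and 16.33 with siADAR1 #1, and 17.17 and 16.67 with siADAR1 #2. The shifts of 0.90 and 0.93 (1.87-fold and 1.91-fold) were close to each other. The replicates with siADAR1 #1, 17.46 and 16.33, stood further apart than the shift itself, with an SD of 0.80 (n = 2). NORAD (chr20:36045618-36051018, minus strand), a cytoplasmic RNA that binds PUMILIO proteins and protects genome stability, had 14.69 and 14.64 in siControl and 15.85 and 15.51 with siADAR1 #1, and its mean with siADAR1 #2 was 15.13 (SD 0.18, n = 2). It was 2.03-fold higher with siADAR1 #1 and 1.38-fold with siADAR1 #2, and no library of the one siRNA overlapped those of the other. CHASERR (chr15:92819540-92899701, plus strand), which begins upstream of the chromatin remodeler gene CHD2, overlaps it on the same strand in GENCODE 44 and is known to restrain it, had 11.26 and 11.33, 12.29 and 12.00, and 11.98 and 12.03. Its shifts were 0.85 and 0.72, with an SD of 0.05 in siControl, 0.21 with siADAR1 #1 and 0.03 with siADAR1 #2 (n = 2). CHD2 itself, named here for that relation and outside the rule for named genes, differed by -0.17 with siADAR1 #1 (adjusted p = 0.396) and 0.43 with siADAR1 #2 (adjusted p = 0.0362), under the limit of 0.5 for a call in limma.

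PVT1 (chr8:127794526-128187101, plus strand), a lncRNA next to MYC that is amplified in many tumors, had 9.50 and 9.44 in siControl, 10.23 and 10.27 with siADAR1 #1, and 9.82 and 9.98 with siADAR1 #2. A pair of transcripts at the GABPB1 locus were members as well. GABPB1-AS1, which runs opposite to GABPB1 (the gene of an ETS-type transcription factor subunit), had 9.47 and 9.32, 10.37 and 10.26, and 10.38 and 10.04. GABPB1-IT1, an intronic transcript on the strand of GABPB1, had 8.32 and 8.21, 8.94 and 9.03, and 9.53 and 9.47. The former had near values with either siRNA, whereas the latter was higher with siADAR1 #2. ERVK13-1, a transcript of an endogenous retrovirus of the K family, had 9.51 and 9.60, 10.24 and 10.07, and 10.07 and 10.15, for shifts of 0.60 and 0.56. The remaining risers among the 15 with the highest means were RNF32-DT, SLC25A25-AS1, LINC00957, CHMP1B-AS1, TPM1-AS, ENSG00000260196, ENSG00000268205 and ENSG00000273151. Their shifts ran from 0.48 to 2.21.

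The widest separations from siControl were seen in lncRNAs that are mostly unnamed. ENSG00000272405 (chr1:156641666-156644887, minus strand, a single exon) had 6.59 and 6.10 in siControl, 8.61 and 8.47 with siADAR1 #1, and 9.38 and 9.31 with siADAR1 #2. It was thus 4.58-fold and 7.99-fold higher, and its lowest siADAR1 value lay 1.88 above its highest siControl value. The next gaps were 0.88 for ENSG00000225335, 0.85 for ENSG00000261324, 0.83 for GSK3B-DT and 0.71 for MIR130AHG. At the limit of the rule stood ENSG00000284052 (0.202), TFIP11-DT (0.214) and ASH1L-AS1 (0.217) just inside, with ENSG00000261460 (0.194) and ENSG00000260751 (0.188) just outside. Over all 64 risers the median shift was 0.68 with siADAR1 #1 (range 0.31 to 2.48) and 0.78 with siADAR1 #2 (range from 0.29 up to the 7.99-fold of ENSG00000272405), and 13 and 19 of them moved by more than 1. Hence a typical riser was 1.61-fold and 1.71-fold above the control.

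**Figure D2:**
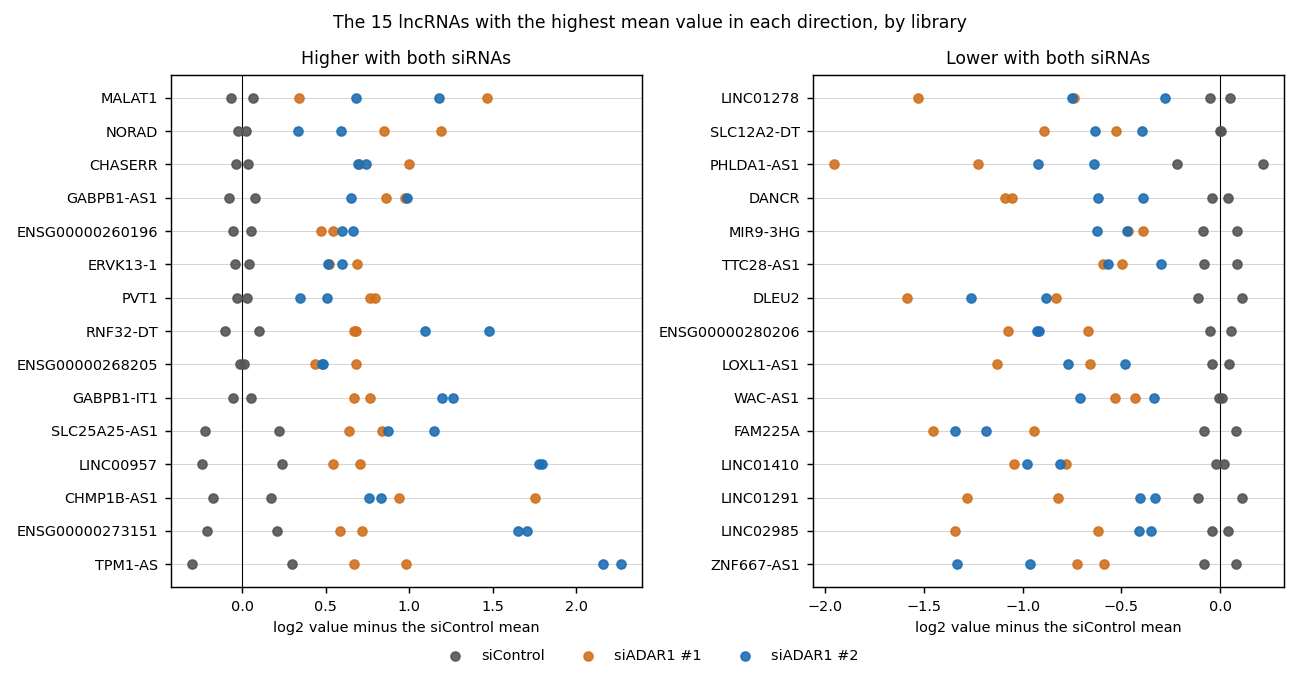
Log2 value minus the siControl mean (x axis) for the 15 members with the highest mean in each direction, one lncRNA per line and 1 point per library, colored by group. By the rule no siADAR1 point overlaps a siControl point; LINC00957, ENSG00000273151 and TPM1-AS stand further right with siADAR1 #2, and MALAT1 shows the widest spread within siADAR1 #1 of the 30.

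Among the members that fell, LINC01278 (chrX:63222993-63561095, minus strand) had the highest mean, with 10.52 and 10.62 in siControl, 9.04 and 9.83 with siADAR1 #1, and 9.82 and 10.29 with siADAR1 #2. DANCR (chr4:52712325-52723623, plus strand), an RNA that holds back differentiation and is high in many cancers, had 9.79 and 9.71, 8.66 and 8.70, and 9.36 and 9.13. Its shift was -1.07 with siADAR1 #1 and -0.50 with siADAR1 #2, that is, 0.476 and 0.706 of the control level. PHLDA1-AS1 had 10.58 and 10.15, 8.41 and 9.14, and 9.44 and 9.73, and it too was lower with siADAR1 #1. FAM225A and LINC01410, both on chromosome 9, were lower by like amounts with either siRNA. FAM225A had 9.60 and 9.44, 8.58 and 8.07, and 8.34 and 8.18, for shifts of -1.20 and -1.26. LINC01410 had 9.22 and 9.18, 8.16 and 8.42, and 8.22 and 8.39, for shifts of -0.91 and -0.90. The other fallers among the 15 with the highest means were SLC12A2-DT, TTC28-AS1, LOXL1-AS1, WAC-AS1, LINC01291, LINC02985, ZNF667-AS1 and ENSG00000280206, with shifts between -1.15 and -0.37. TMPO-AS1, DLEU1 and LINC01116, fallers on the list of cancer-linked lncRNAs, had shifts of -1.13 and -0.69, -0.68 and -0.38, and -0.68 and -0.43.

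The fallers with the widest separation were ENSG00000259952 and MBNL1-AS1. ENSG00000259952 (chr16:29806496-29807732, minus strand), which overlaps the transcription factor gene MAZ, had 9.59 and 9.30 in siControl, 8.04 and 7.94 with siADAR1 #1, and 7.37 and 7.42 with siADAR1 #2. It was at 0.365 and 0.241 of the control level, with tight replicates. MBNL1-AS1 (chr3:152245262-152269590, minus strand) had 9.29 and 9.11, then 7.18 and 5.28, then 8.02 and 6.30. It showed the largest shift with siADAR1 #1 of all members, -2.97, but also the widest spread, with replicates 1.89 apart with siADAR1 #1 and 1.72 apart with siADAR1 #2. MAP3K9-DT, KCNJ5-AS1 and ENSG00000254605 followed, with gaps of 0.97, 0.93 and 0.92. Just inside the limit were ZNF710-AS1 (0.201), PRKCQ-AS1 (0.201) and DLEU1 (0.209), and just outside were ENSG00000272631 (0.198), HOXC-AS2 (0.196) and ENSG00000285756 (0.195). Over all 68 fallers the median shift was -0.92 with siADAR1 #1 (range -2.97 to -0.34) and -0.79 with siADAR1 #2 (range -2.05 to -0.27), with 30 and 23 beyond 1. The median faller was thus at 0.528 and 0.578 of the control level.

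Risers and fallers differed in how tightly the replicates of the siADAR1 groups lay. The median distance between replicates of the risers was 0.16 in siControl, 0.17 with siADAR1 #1 and 0.14 with siADAR1 #2. For the fallers it was 0.15 in siControl, but 0.38 with siADAR1 #1 and 0.26 with siADAR1 #2. Replicate 2 was the higher for 45 of 68 fallers with siADAR1 #1, for 48 of 68 with siADAR1 #2 and for 29 of 68 in siControl. Among the risers it was the higher for 25, 32 and 26 of 64 in the same order, and among the 887 other screened lncRNAs for 453, 428 and 472. These siADAR1 and siControl values are the ones the rule used, and no test was made of the differences. ADAR was also higher in replicate 2 with either siRNA, and a relation to the replicate differences of the members was not tested.

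Gene structure and position were not read by the rule. Of the 64 risers, 28 (43.75%) had a single exon, against 9 of 68 fallers (13.2%) and 239 of the 887 other screened lncRNAs (26.9%). The median number of exons was 2 in risers, 4 in fallers and 3 in the others, and the median summed exon length was 2855, 3647.5 and 3387 bases. GC content had medians of 48.2%, 44.6% and 47.3%. Risers thus tended to be shorter, less spliced and richer in GC than fallers, with the other lncRNAs between them on all 4 measures. An overlap with a protein-coding gene on the same strand was found for 17 risers (26.6%), 8 fallers (11.8%) and 155 others (17.5%), and for these, reads of the host gene's unspliced RNA cannot be told apart from reads of the lncRNA. Overlap on the other strand only was about as common in each, at 30 (46.9%), 34 (50%) and 423 (47.7%). As the strand setting of the counting is not given in the sources used here, reads of such antisense pairs may be shared as well. Chromosome 7 held the most risers (9 of the 51 lncRNAs screened there), while chromosome 9 held 9 fallers (of 42) and chromosome 5 held 8 (of 41). By name, 17 risers and 20 fallers were antisense transcripts, 7 and 8 were divergent transcripts, 3 and 11 were numbered intergenic lncRNAs, and 26 and 19 had an identifier only.

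To ask whether the siRNAs differed in strength for these lncRNAs, siADAR1 #1 was compared with siADAR1 #2 by limma over 20858 genes, a difference of siADAR1 means alone, with its spread estimated from all 3 groups, siControl included. Calls required a Benjamini-Hochberg adjusted p under 0.05 and a log2 difference beyond 0.5. The rule still needs every siADAR1 value past siControl, which limits how far apart the siRNAs can be. With siADAR1 #1, 5 risers were higher and 8 lower than with siADAR1 #2, and 3 fallers were higher and 5 lower. Thus 8 of 132 were higher and 13 lower, against 16.1% and 16.7% of all genes tested, and 11.7% and 24.2% of the other screened lncRNAs. When each library was centred on its median gene the counts were 10 and 9, and after quantile normalization 11 and 11. With 1 library left out, the counts were 1 higher and 5 lower without siADAR1 #1 replicate 1, 3 and 5 without siADAR1 #2 replicate 1, 2 and 7 without siADAR1 #2 replicate 2, 5 and 13 without siADAR1 #1 replicate 2, and 4 and 10 without either siControl library. The other 51 risers and 60 fallers missed the limits, which does not show that the siRNAs acted alike on them.

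The members for which siADAR1 #2 gave the higher value included TPM1-AS, antisense to the tropomyosin gene TPM1. It had 8.29 and 7.98 with siADAR1 #1 and 9.58 and 9.47 with siADAR1 #2, against 7.61 and 7.01 in siControl, and the difference between the siRNAs was -1.39 ± 0.24 (SE, adjusted p = 0.00348 by limma, n = 2 per group). ENSG00000271780 had 6.03 and 6.06 against 7.54 and 7.56, with 5.59 and 5.80 in siControl, a difference of -1.51 ± 0.25 (adjusted p = 0.00282 by limma). It passed the mean limit of 6 only through its siADAR1 #2 values, so this test is not independent of the choice. LINC00957 had 8.18 and 8.33 against 9.43 and 9.41, and ENSG00000273151 had 8.34 and 8.21 against 9.27 and 9.32. Their differences were -1.16 and -1.02, and in all 4 of these risers siADAR1 #2 gave the larger rise. Each of these 4 calls held whichever library was left out. LINC02714, a faller, had 6.36 and 7.03 with siADAR1 #1 and 7.90 and 7.82 with siADAR1 #2, so that it fell more with siADAR1 #1 (difference -1.17 ± 0.26, adjusted p = 0.0105 by limma). That call was lost without siADAR1 #2 replicate 1. DANCR and PHLDA1-AS1 also fell more with siADAR1 #1, with differences of -0.57 (adjusted p = 0.0248) and -0.81 (adjusted p = 0.0438, limma). The DANCR call was lost without either siADAR1 #1 library or siADAR1 #2 replicate 1, and under either other scaling. That of PHLDA1-AS1 was lost in 5 of the 6 fits that left out a library, all but the one without siADAR1 #1 replicate 2.

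In the opposite direction, ENSG00000276603 (chr20:37526642-37527060, minus strand), a short single-exon transcript inside the BLCAP gene and on its strand, had 7.72 and 7.32 with siADAR1 #1 and 5.92 and 5.49 with siADAR1 #2, against 4.95 and 5.13 in siControl. The difference between the siRNAs was 1.81 ± 0.30 (SE, adjusted p = 0.00286 by limma, n = 2 per group), and the call held whichever library was left out. Only its siADAR1 #1 values lay above the mean limit of 6. The rule thus admitted it through that siRNA, and this test is not independent of the choice. BLCAP, whose transcript is a known target of editing, was at 12.09 and 11.91 in siControl, 12.06 and 12.03 with siADAR1 #1, and 13.22 and 12.82 with siADAR1 #2. It thus moved with the other siRNA, by 1.02 (adjusted p = 0.00222) against 0.04 with siADAR1 #1 (adjusted p = 0.872, limma). NORAD was higher with siADAR1 #1 by 0.56 (adjusted p = 0.0181 by limma), a call lost without siADAR1 #1 replicate 1 or siADAR1 #2 replicate 2. ENSG00000260136 and ENSG00000260920 rose more with siADAR1 #1, by 0.87 and 0.75, and PRR7-AS1 and ENSG00000250132 fell less with it, by 0.90 and 0.78. The calls of these last 4 were each lost in 3 to 6 of the 6 fits that left out a library.

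**Figure D3:**
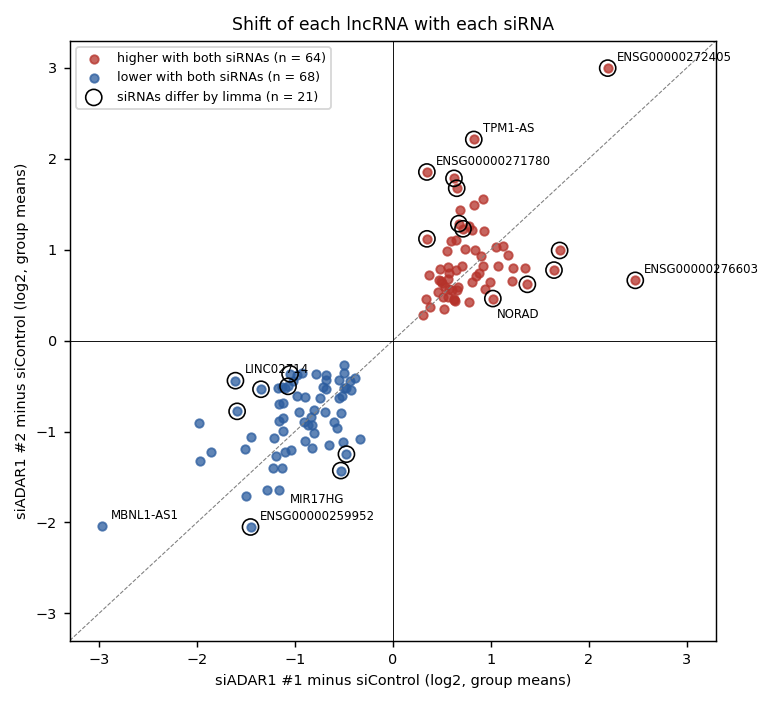
Shift of each of the 132 members against the siControl mean with siADAR1 #1 (x axis) and siADAR1 #2 (y axis), both as log2 differences of group means (n = 2). Red points rose and blue points fell by the rule, the dashed line marks equal shifts, and black rings mark the 21 members called different between the siRNAs by limma. ENSG00000276603 lies far below the dashed line and TPM1-AS and ENSG00000271780 far above it.

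The protein-coding gene with the nearest transcription start, within 50 kb, was then examined for each member, as its values were not read by the rule. Such a neighbor was present for 59 of 64 risers and 47 of 68 fallers, and 56 and 45 distinct neighbors were tested against siControl by limma. Beside the risers, 10 neighbors rose and 7 fell with siADAR1 #1, and 13 rose and 7 fell with siADAR1 #2. Beside the fallers, none rose and 15 fell with siADAR1 #1, and 3 rose and 15 fell with siADAR1 #2. Over all genes tested, 6.18% rose and 10.6% fell with siADAR1 #1, and 11.1% rose and 15.5% fell with siADAR1 #2. The neighbors of risers thus rose in 17.9% and 23.2%, and those of fallers fell in 33.3% with either siRNA, in each case above the share over all genes. Among the 608 neighbors of the other screened lncRNAs, 6.91% rose and 15% fell with siADAR1 #1, and 9.54% rose and 20.1% fell with siADAR1 #2. Both comparisons used the same siControl libraries.

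Sharing of reads bears on the neighbors that overlap their lncRNA, so the others were counted apart. Of 26 riser neighbors without overlap, 5 rose and 4 fell with siADAR1 #1, and 8 rose and 3 fell with siADAR1 #2. Of 19 faller neighbors without overlap, 6 fell with siADAR1 #1, and 2 rose and 7 fell with siADAR1 #2. Among 283 neighbors without overlap of the other screened lncRNAs, 8.83% rose and 14.5% fell with siADAR1 #1. With siADAR1 #2, 11% of them rose and 20.8% fell. Riser neighbors without overlap rose in 19.2% and 30.8% and fell in 15.4% and 11.5%, and those of fallers fell in 31.6% and 36.8%. These shares were like those of all neighbors, on few genes. With siADAR1 #1, riser neighbors fell nearly as often as they rose. With siADAR1 #1 the calls rested on single libraries. Over all members, 25 neighbors moved in the direction of their lncRNA and 7 in the opposite one, which became 5 and 0 without siControl replicate 1, 10 and 3 without siControl replicate 2, and 10 and 2 without siADAR1 #1 replicate 1. With siADAR1 #2 the counts were 28 and 10, and they became 17 and 7 without siControl replicate 1 and 18 and 9 without siADAR1 #2 replicate 1. Head-to-head pairs were those on opposite strands with starts at most 2 kb apart and each start upstream of the other. They were found for 7 risers (10.9%), 10 fallers (14.7%) and 123 of the other lncRNAs (13.9%), and no test was made of these shares.

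Some riser and neighbor pairs moved together. KDM7A, a histone demethylase gene that starts 201 bases from KDM7A-DT without overlap, had log2 values of 9.05 and 9.07 in siControl, 11.10 and 11.13 with siADAR1 #1, and 10.24 and 10.08 with siADAR1 #2. Its differences were 2.06 (adjusted p = 0.00167) and 1.10 (adjusted p = 0.00106, limma), while KDM7A-DT stood higher by 0.92 and 1.56, so the siRNA with the larger value was not the same for both genes. BCAN, a brain proteoglycan gene that overlaps ENSG00000272405 on the other strand, had low values of 3.47 and 3.08, 5.57 and 5.42, and 5.74 and 4.99. It differed by 2.21 (adjusted p = 0.00963) and 2.09 (adjusted p = 0.00586, limma). EPB41L1, a cytoskeletal linker gene beside NORAD, had 8.97 and 9.39, 10.32 and 10.16, and 9.90 and 10.19, and CHMP1B, a membrane remodeling gene opposite CHMP1B-AS1, differed by 1.05 and 0.62. The calls of EPB41L1, CHMP1B and BCAN with siADAR1 #1 were lost without siControl replicate 1 and without siADAR1 #1 replicate 1, those of CHMP1B and BCAN also without siControl replicate 2. With siADAR1 #2, that of EPB41L1 was lost without siControl replicate 1 or siADAR1 #2 replicate 2 and that of CHMP1B without either siControl library or siADAR1 #2 replicate 1.

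In other pairs the neighbor fell while the lncRNA rose. GABPB1 had 11.76 and 11.34 in siControl, 10.68 and 10.77 with siADAR1 #1, and 10.26 and 10.36 with siADAR1 #2, below the controls in all 4 libraries. The differences were -0.82 (adjusted p = 0.0133) and -1.24 (adjusted p = 0.00135, limma), opposite to those of GABPB1-AS1 and GABPB1-IT1 on either strand of the locus. GSK3B, the gene of a kinase of Wnt and insulin signaling, had 13.52 and 13.31, 12.67 and 12.71, and 12.66 and 12.83. It differed by -0.72 (adjusted p = 0.00815) and -0.67 (adjusted p = 0.00513, limma), against shifts of 0.93 and 1.21 for GSK3B-DT. KCTD5, which starts 125 bases from ERVK13-1, differed by -1.08 with siADAR1 #1 and by 0.66 with siADAR1 #2, so that its direction was not that of ERVK13-1 with both siRNAs. With siADAR1 #1 the GABPB1 call was lost without siControl replicate 1 or siADAR1 #1 replicate 1, the GSK3B call without siControl replicate 1 and the KCTD5 call without either siControl library. The KCTD5 call with siADAR1 #2 was lost without either siControl library or either siADAR1 #2 library.

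Beside the fallers, the neighbors that were called mostly fell. MAZ had 13.06 and 13.03 in siControl, 11.72 and 12.07 with siADAR1 #1, and 11.78 and 11.78 with siADAR1 #2, for differences of -1.15 (adjusted p = 0.0032) and -1.27 (adjusted p = 0.000665, limma) that held whichever library was left out. MBNL1, a splicing regulator gene, had 14.13 and 13.96, 13.33 and 13.38, and 11.88 and 12.25. It was lowest with siADAR1 #2, by -1.98 (adjusted p = 0.000259) against -0.69 with siADAR1 #1 (adjusted p = 0.0156, limma, lost without either siControl library or siADAR1 #1 replicate 1), whereas MBNL1-AS1 was lowest with siADAR1 #1. ZCCHC9, which starts 22 bases from CKMT2-AS1 without overlap, had 10.96 and 10.68, 9.96 and 9.85, and 8.75 and 8.82, and CKMT2-AS1 had 9.22 and 9.04, 7.68 and 8.14, and 7.56 and 7.90. The ZCCHC9 call with siADAR1 #1 was lost without siControl replicate 1. PHLDA1, which encodes an apoptosis-linked protein, differed by -1.23 with siADAR1 #1 and -0.56 with siADAR1 #2. Without siControl replicate 1 both calls were lost, and the second was also lost without either siADAR1 #2 library. TMPO, a nuclear lamina gene, had 14.41 and 14.27, 14.23 and 14.07, and 13.07 and 13.26, so that it was called with siADAR1 #2 (-1.18, adjusted p = 0.000557 by limma) and not with siADAR1 #1 (-0.19, adjusted p = 0.32). ANO1, a chloride channel gene across ENSG00000254605, was at 9.63 and 9.84, 8.50 and 8.94, and 4.72 and 5.49. It showed the largest fall of any neighbor with siADAR1 #2, -4.63 (adjusted p = 0.000258 by limma). STARD4, a cholesterol transport gene, went against STARD4-AS1 with siADAR1 #2, at 12.22 and 12.12, 12.29 and 12.48, and 13.41 and 13.20. PVT1, DLEU2, MIR17HG, MIR31HG and LINC01278 had no protein-coding start within 50 kb of their own start. Some of them still run across protein-coding genes further along: DLEU2 across KCNRG and TRIM13, MIR31HG across interferon genes such as IFNE, and LINC01278 across SPIN4. KDM7A, ZCCHC9 and STARD4 were named outside the rule for named genes, after their values were seen.

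**Figure D4:**
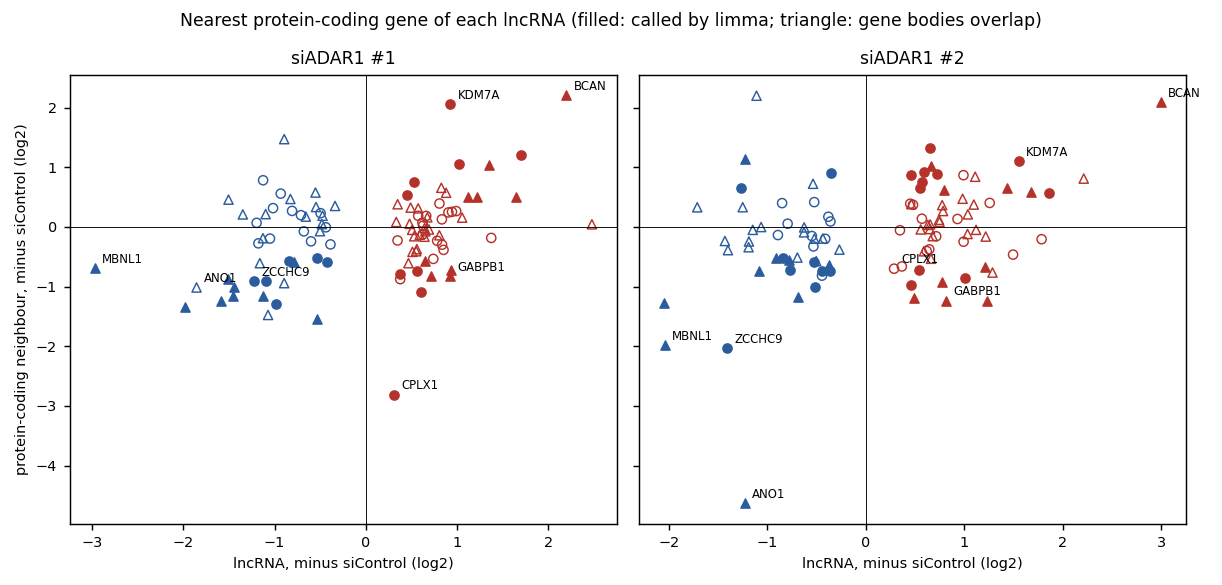
Log2 difference from siControl of each tested protein-coding neighbor (y axis) against the shift of its lncRNA (x axis), with siADAR1 #1 on the left and siADAR1 #2 on the right. Red marks neighbors of risers and blue those of fallers; filled symbols were called by limma, triangles overlap the lncRNA and circles do not. KDM7A and BCAN lie at the upper right in both panels, and the filled blue symbols lie below 0 with siADAR1 #1.

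Other well known lncRNAs were taken from 4 lists made by role, and most were not members. Of 123 lncRNAs listed, 87 were tested, and 4 risers and 8 fallers were among them. As the rule fixed the direction of those 12, the counts below are of the 75 that were not members. With siADAR1 #1, 1 rose (1.33%, against 6.18% of all genes tested) and 12 fell (16%, against 10.6%). With siADAR1 #2, 10 rose (13.3%, against 11.1%) and 6 fell (8%, against 15.5%). The shares over all genes keep genes that moved alike with both siRNAs, whereas the 75 had such members taken out. These shares are thus not like for like, and no difference is read from them. With the 12 members kept, 4 of the 87 rose and 17 fell with siADAR1 #1, and 10 rose and 11 fell with siADAR1 #2. The median differences over the 75 were -0.05 and 0.20, beside -0.02 and -0.01 over all genes tested. By list, the 12 on the nuclear body and chromatin list gave 0 up and 3 down with siADAR1 #1, and 1 up and 2 down with siADAR1 #2. The 25 microRNA hosts gave 0 up and 5 down, and 6 up and 2 down. The 38 cancer-linked lncRNAs gave 1 up and 4 down, and 4 up and 2 down, and the 3 tied to p53 or DNA damage gave 0 up and 1 down, and 1 up and 0 down. The members on these lists were MALAT1, NORAD and PVT1 (nuclear body and chromatin list), MIR17HG, MIR31HG and MIR9-3HG (microRNA hosts), DANCR, DLEU2, DLEU1, TMPO-AS1 and LINC01116 (cancer-linked) and LINC-PINT (p53). NORAD stands on that first list although it is cytoplasmic, as given above. With siADAR1 #1 the counts over the 75 became 0 up and 2 down without siControl replicate 1, and 0 and 6 without siControl replicate 2 or siADAR1 #1 replicate 1. With siADAR1 #2 they became 8 and 2 without siControl replicate 1, 5 and 5 without siControl replicate 2, 5 and 2 without siADAR1 #2 replicate 1, and 7 and 3 without siADAR1 #2 replicate 2.

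The rule took out, as members, the listed lncRNAs at its mean limit whose siADAR1 values all lay past siControl by its margin. Listed lncRNAs under the mean limit stayed even where they moved alike. MIR205HG, for one, lay below siControl in all 4 siADAR1 libraries, by -2.32 with siADAR1 #1 and -1.71 with siADAR1 #2. It is named outside the rule for named genes, after its values were seen. Shifts with a single siRNA or in opposite directions among those left thus follow largely from the rule and are given as a description. NEAT1, the scaffold of paraspeckles and the genomic neighbor of MALAT1, differed by -0.65 with siADAR1 #1 (adjusted p = 0.0669) and by 1.71 with siADAR1 #2 (adjusted p = 0.0011, limma). It therefore did not share the direction of MALAT1 with siADAR1 #1. MIR100HG differed by -1.32 (adjusted p = 0.00259) and 0.65 (adjusted p = 0.0101), and MIR4435-2HG by -0.87 (adjusted p = 0.0163) and 1.16 (adjusted p = 0.00269, limma). CYTOR, a near-identical copy of part of MIR4435-2HG with which it may share reads, differed by -0.84 and 0.49. OIP5-AS1, also called cyrano, differed by 0.22 (adjusted p = 0.253) and -0.92 (adjusted p = 0.00143), and MIR503HG by 0.49 (adjusted p = 0.368) and 2.85 (adjusted p = 0.000973, limma). TUG1 was lower with either siRNA, by -0.67 (adjusted p = 0.0132) and -1.01 (adjusted p = 0.00133, limma), but GENCODE 44 types it as protein-coding, so it was not among the lncRNAs screened. TP53TG1 was called with siADAR1 #1 alone, at -1.28 (adjusted p = 0.0411) against 0.12 (adjusted p = 0.835, limma). Without siControl replicate 1, the siADAR1 #1 calls of TUG1, MIR4435-2HG, CYTOR and TP53TG1 were lost, that of TUG1 was also lost without siADAR1 #1 replicate 1, and that of TP53TG1 in 5 of the 6 fits that left out a library. The MIR100HG call with siADAR1 #2 was lost without siControl replicate 2 or siADAR1 #2 replicate 1.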

How the data were processed

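RNA from Cal62 cells was sequenced as poly(A) libraries (75-bp paired-end reads). The authors trimmed the reads and counted them per gene with featureCounts on GRCh38. For the DESeq2 normalization the paper states a preference for per-gene counts estimated by Salmon, so which counts underlie the deposited values is not known. Strand setting and annotation release are not given in the sources used here. The authors deposited log2 values after DESeq2 normalization and variance stabilization. Inverting that transform returned whole reads for 100% of values (tolerance 0.1). Each GEO sample holds 2 columns, taken as the 2 biological replicates that the methods state. Gene types and positions came from GENCODE 44 (57830 of 58333 genes matched). Rows were screened by the rule given with the results. Tests used limma 3.58.1 in R 4.3.3 on genes with a mean of at least log2(10), with 3 group means, an eBayes trend and Benjamini-Hochberg adjustment over 20858 genes, two-sided, and the code was tested on simulated data. A call was an adjusted p under 0.05 with a log2 difference beyond 0.5. Members named were the 15 with the highest mean and the 5 with the widest gap in each direction, up to 5 each way between the siRNAs, those on the lists, up to 3 at each limit, and their neighbors; a few of these are not reported here. The members and lists were chosen with earlier results of these data known.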

Additional observations from a re-analysis of the deposited data

Results flagged for a closer look

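Both siRNAs target the same gene, yet members differed between them by the test of that difference (limma, adjusted p under 0.05, n = 2 per group), and the 5 largest such differences in each direction are given here. Values are log2, siADAR1 #1 minus siADAR1 #2. Lower with siADAR1 #1 were the risers ENSG00000271780 (-1.508), TPM1-AS (-1.387), LINC00957 (-1.161) and ENSG00000273151 (-1.024) and the faller LINC02714 (-1.167). Higher with siADAR1 #1 were the risers ENSG00000276603 (1.813), ENSG00000260136 (0.87) and ENSG00000260920 (0.7546) and the fallers PRR7-AS1 (0.8983) and ENSG00000250132 (0.7751). In all 10 the libraries of the siRNAs did not overlap, which is no further support, as the 10 were picked for the size of the difference. ENSG00000271780 and ENSG00000276603 passed the mean limit of the rule only through the siRNA with the higher value, which favors such a gap. Of the risers, 7.81% were called higher and 12.5% lower with siADAR1 #1, and of the fallers 4.41% and 7.35%. Over all genes tested these shares were larger, at 16.1% and 16.7%. The calls of LINC02714, PRR7-AS1, ENSG00000260136, ENSG00000250132 and ENSG00000260920 were each lost in at least 1 fit that left out a library.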

How the results depend on the processing

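No called value changed sign in any alternative, but some that were not called did. Of 146 alternative values for the counts, 109 stayed within 1.5 times and 37 did not. Of 791 for the single genes given with a test, 682 kept their side of the limits, 97 lost the call, 10 gained one and 2 changed sign. TP53TG1 with siADAR1 #2 was -0.0385 after quantile normalization, and BLCAP with siADAR1 #1 ran from -0.04785 to 0.1359 over the fits that left out a library. Over all genes computed, 31 of 1747 values changed sign and 0 of these were called. Median centring gave 86 risers and 52 fallers (62 and 50 of them members), quantile normalization 60 and 66 (52 and 58 members). Without a filter on low values, 4 members were higher with siADAR1 #1. An eBayes without trend left 9 neighbors in the direction of their lncRNA and 0 in the opposite one, and 5 listed lncRNAs outside the members that fell, all with siADAR1 #1. Median centring gave 2 listed lncRNAs that rose with siADAR1 #1. The cause was not tested.

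Leaving out 1 library gave 74 to 155 risers and 75 to 99 fallers, as fewer values then have to pass the limit: 121 and 155 risers without siControl replicates 1 and 2, and 104 without siADAR1 #1 replicate 2. It gave 1 to 5 members higher and 5 to 13 lower with siADAR1 #1 than with siADAR1 #2, and 6 to 14 of the 21 calls were kept. With siADAR1 #1, 5 to 25 neighbors moved in the direction of their lncRNA and 0 to 10 in the opposite one, and 0 to 1 listed lncRNAs rose and 2 to 11 fell. With siADAR1 #2 these were 17 to 29, 7 to 10, 5 to 13 and 2 to 6.

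The labels do not say that replicate numbers mark a shared batch, and replicate differences correlated weakly between groups (r = 0.1064, 0.1097 and 0.1621, across 20858 genes). With the replicate block, 8 members were higher and 15 lower with siADAR1 #1, and all 21 calls were kept. Neighbors in the same and opposite direction were 28 and 9 with siADAR1 #1 and 29 and 11 with siADAR1 #2, and listed lncRNAs that rose and fell were 2 and 17, and 13 and 9. With 2 libraries per group, the fit has 3 residual degrees of freedom (2 with the block), and members had as few as 21 reads in a library, which limits small differences.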
